A study of Mus musculus with 12 samples.

Results

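The peaks described here are those of miR-126a, miR-143 and miR-145a, 3 miRNAs known from the cells of blood vessels, in maps of small RNAs joined to their target RNAs in adult mouse forebrain. A peak is a stretch of target RNA to which chimeric reads, each naming a small RNA and its target, assign 1 small RNA. Members were the peaks in all 4 deposited lists whose small RNA name begins with miR-126a-, miR-143- or miR-145a-. Peaks on mitochondrial rRNA and on Gm42418, a gene that overlaps rRNA repeat sequence, were left out. They numbered 2912 of 250567 deposited peaks, and the question was whether their targets are vascular or neuronal genes.

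The 12 forebrain samples came from C57BL/6 mice of 10 to 12 weeks. In 3 of them, called excitatory neurons here, anti-myc pulled down a tagged Ago2 from the ROSA26 locus that Camk2a-CreERT2, a driver active in excitatory neurons, had switched on. Tamoxifen was given at 2 mg daily for 5 days, and tissue was taken 14 to 21 days after it. Anti-Ago2 was used on whole forebrain in 7 samples, deposited as replicates 5 to 7 (reps 5-7, 3 samples) and replicates 1 to 4 (reps 1-4, 4 samples), and IgG served as the control in 2 samples. The labels carry 1 treatment text for all samples, so they do not tell whether mice used for anti-Ago2 and IgG also had the tagged allele. The protocol states paired 150-base reads and a depth of 61 to 138 M reads per sample, where M is 10 to the power 6. Peaks were called over the pooled libraries of a group, with minimums of 3 reads and 2 libraries, so each list is 1 observation and has no replicate spread. All intervals are Wilson 95% intervals and, like the tests, they cover counting error only, since amplified reads carried no molecular identifiers.

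A miRNA guides Argonaute to RNAs that pair with its seed, the bases near its 5' end, and the bound mRNA is then translated less or degraded. miR-126 is made from an intron of Egfl7 in endothelial cells, where it is known to act on the VEGF response through Spred1 and Pik3r2 and on adhesion through Vcam1. miR-143 and miR-145 are made from 1 shared transcript in smooth muscle cells and pericytes, the mural cells of vessels, and are known for their part in the contractile state of smooth muscle. The lists hold pairs of RNAs and no measure of the cell each pair came from. Targets were therefore read against lists of genes typical of endothelial, mural, perivascular fibroblast, neuronal and glial cells. In reps 1-4, 82 of the 108 vascular list genes and 92 of the 99 neuronal list genes held at least 1 peak of any small RNA.

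The mature sequence of miR-126a-3p is shown because it carried most member peaks and most of the endothelial targets. It is the RefSeq entry on GRCm38.p6, at chr2:26591402-26591423 on the plus strand, 22 bases long, with the seed (bases 2 to 8) in capitals. The RefSeq table matched 1 of the 6 member arms, and it held no other mature miRNA with this seed.
miR-126a-3p: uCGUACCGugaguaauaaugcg
The reps 1-4 list also had a miR-126a-3p peak of score 26 on its own hairpin, at chr2:26591365-26591384, inside the Mir126a hairpin (chr2:26591357-26591429) and the Egfl7 locus (chr2:26581083-26592682).

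The members lay almost entirely in the largest list. The excitatory neuron list held 0 member peaks among its 704 peaks outside rRNA. A count of 0 there allows a share of up to 0.426%, taken as 3 peaks of 704, or of up to 0.543% by the Wilson interval. Reps 5-7 held 18 of 3020 peaks (0.596%; 0.377 to 0.940%), reps 1-4 held 2894 of 242044 (1.20%; 1.15 to 1.24%), and the IgG list held 0 of 1. The targets described are therefore those of reps 1-4 unless another list is named.

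Within reps 1-4, miR-126a-3p had 1945 peaks on 1065 genes and ranked 21 of 708 small RNAs by peak number. miR-143-3p followed with 442 peaks on 293 genes (rank 45), then miR-145a-5p with 310 peaks on 225 genes (rank 53) and miR-126a-5p with 192 peaks on 143 genes (rank 69). The other strands were nearly missing, with 3 peaks of miR-143-5p and 2 of miR-145a-3p. The score is a whole number the authors gave each peak, with a lowest value of 3, and its definition is not given in the sources used here. Its median was 4 for miR-126a-3p and 3 for each of the other 3 arms, against 4 over all peaks. Of the miR-126a-3p peaks, 67.1% overlapped no peak of another small RNA, against 64.8% of all peaks. The median width was 25 bases for the members and 23 bases for all peaks. Member peaks overlapped an IgG peak in 3 cases.

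The first question was whether these miRNAs made up a smaller share of the targets when Ago2 came from excitatory neurons. The share of each small RNA was compared between lists by a two-sided Fisher's exact test and adjusted after Benjamini-Hochberg over every small RNA with at least 10 peaks in both lists together. miR-126a-3p took 0 of 704 peaks in excitatory neurons and 0.804% of peaks in reps 1-4 (0.769 to 0.840%). At the reps 1-4 share, 5.66 peaks would have been counted in the excitatory list. The difference did not pass Fisher's exact test after Benjamini-Hochberg adjustment (p = 0.00863, adjusted p = 0.151). Of the 243 small RNAs tested, 4.12% passed, and none of the 4 member arms was among them. For miR-126a-5p, miR-143-3p and miR-145a-5p, each with 0 excitatory peaks against 0.0793%, 0.183% and 0.128% in reps 1-4, no difference could be seen with this few excitatory peaks (adjusted p = 1 for each, Fisher's exact test). With the members merged to 1 name, the excitatory share was lower than that of reps 1-4 by a difference of -1.20 points that passed (adjusted p = 0.0108, Fisher's exact test with Benjamini-Hochberg adjustment). Merged in this way, reps 5-7 were also lower than reps 1-4 (-0.600 points, adjusted p = 0.0380, Fisher's exact test). Excitatory neurons minus reps 5-7 gave -0.596 points, which did not pass (adjusted p = 0.0853, Fisher's exact test). For miR-126a-3p alone in excitatory neurons against reps 1-4, the adjusted p ran from 0.0757 to 1 over the alternatives, so none passed. With the arms of miR-126a merged it was 0.0753, which did not pass either (Fisher's exact test). Antibody, cell source and list size (704 and 242044 peaks) all differ between excitatory neurons and reps 1-4 and cannot be told apart. Within whole forebrain, fewer vascular cells and less of a miRNA per cell cannot be told apart either.

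Reps 5-7 gave the members too few peaks for a firm comparison. miR-126a-3p took 14 peaks in reps 5-7 (0.464%; 0.276 to 0.777%) and 0.804% of peaks in reps 1-4, which did not pass Fisher's exact test with Benjamini-Hochberg adjustment (p = 0.0387, adjusted p = 0.710). miR-143-3p had 3 peaks, miR-145a-5p had 1 and miR-126a-5p had 0 in reps 5-7, and each had an adjusted p of 1 by the same exact test. No member arm was among the 2.88% of 243 small RNAs that passed. Between excitatory neurons, with 0 peaks, and reps 5-7, with 14, miR-126a-3p gave p = 0.0867 and adjusted p = 0.188 by Fisher's exact test, where 35.9% of 39 small RNAs passed. Between reps 5-7 and reps 1-4 the miR-126a-3p difference was -0.549 points with CDS and UTR peaks alone, which passed (adjusted p = 0.0361, Fisher's exact test). It turned to 0.132 points, which did not pass, when only the 3020 highest-scoring reps 1-4 peaks were used (adjusted p = 1, Fisher's exact test).

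The 18 reps 5-7 peaks were set against reps 1-4 one by one. Of these, 10 were overlapped on their strand by a reps 1-4 peak of their own small RNA (55.6%; 33.7 to 75.4%), against 88.9% of all 3020 peaks. Some lay beside Gm42418 or in an intergenic stretch of chromosome 3, where many small RNAs had peaks. Outside these places 7 of 14 were found again (50%; 26.8 to 73.2%). A peak of any small RNA overlapped 16 of the 18. The miR-126a-3p peak in the CDS of Bsg, which encodes the membrane glycoprotein basigin of the blood-brain barrier, scored 3 in reps 5-7 and 52 in reps 1-4. The peak in the 3' UTR of Slc7a5, the large neutral amino acid transporter, scored 3 in reps 5-7 and 32 in reps 1-4. Bsg and Slc7a5 were the vascular list genes among the 18. The miR-143-3p peaks found again lay on the nuclear RNA Malat1 (score 3 in reps 5-7 and 66 in reps 1-4) and on the mitochondrial gene mt-Nd5 (6 and 199), and the miR-145a-5p peak lay in the 3' UTR of the glutamate transporter Slc1a2 (4 and 8). Among the miR-126a-3p peaks not found again were those on Lcn2, Dynll2, Tmem68 and mt-Cytb and an intron of Celf2, and the miR-143-3p peak in a Kctd16 intron was not found again either. Scores were not scaled to library size and are not comparable between lists in level.

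The arms used different parts of their targets. Each arm's share was compared with the peaks of all other small RNAs by Fisher's exact test with Benjamini-Hochberg adjustment over 133 small RNAs of at least 50 peaks. miR-145a-5p had 35.2% of its peaks in CDS, against 23.0% for the rest (adjusted p = 3.12e-06), and 39.7% in introns, against 48.4% (adjusted p = 0.00247). miR-126a-5p had 9.90% in CDS, against 23.0% (adjusted p = 8.73e-06), and 28.1% in 3' UTRs, against 19.0% (adjusted p = 0.00342). miR-126a-3p, from the same hairpin, had 24.5% in CDS and 19.7% in 3' UTRs, neither of which passed (adjusted p = 0.152 and 0.426, Fisher's exact test), and it was lower in introns by a small amount (45.9%, against 48.4%, adjusted p = 0.0324). The difference in CDS use between these 2 arms was not tested. miR-143-3p, with 24.0% in CDS, 16.3% in 3' UTRs and 47.3% in introns, did not pass in any class (adjusted p = 0.661, 0.202 and 0.673, Fisher's exact test).

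Passing was common in this test: 72.9% of small RNAs passed for CDS, 74.4% for 3' UTR and 90.2% for intron, so a pass is no mark of these miRNAs. The pooled comparison share is also shaped by the few most abundant small RNAs. The median over small RNAs was 31.5% for CDS, 25.9% for 3' UTR and 25.3% for intron. Ranked from high to low among 133, miR-145a-5p stood at 57 for CDS and 36 for intron, miR-126a-5p at 123 for CDS and 59 for 3' UTR, and miR-126a-3p at 88 for CDS and 27 for intron. All 4 arms thus had intron shares above that of the median small RNA. When summed scores replaced peak counts, the CDS difference of miR-145a-5p was 0.773 points, the 3' UTR difference of miR-126a-5p was 4.62 points and its intron difference was 14.4 points. For miR-126a-3p the differences then turned, to -4.70 points in CDS, -4.26 in 3' UTR and 0.664 in intron. With places of 5 or more other small RNAs left out, the CDS share of miR-126a-3p passed as higher by 2.90 points (adjusted p = 0.00445, Fisher's exact test).

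**Figure D1:**
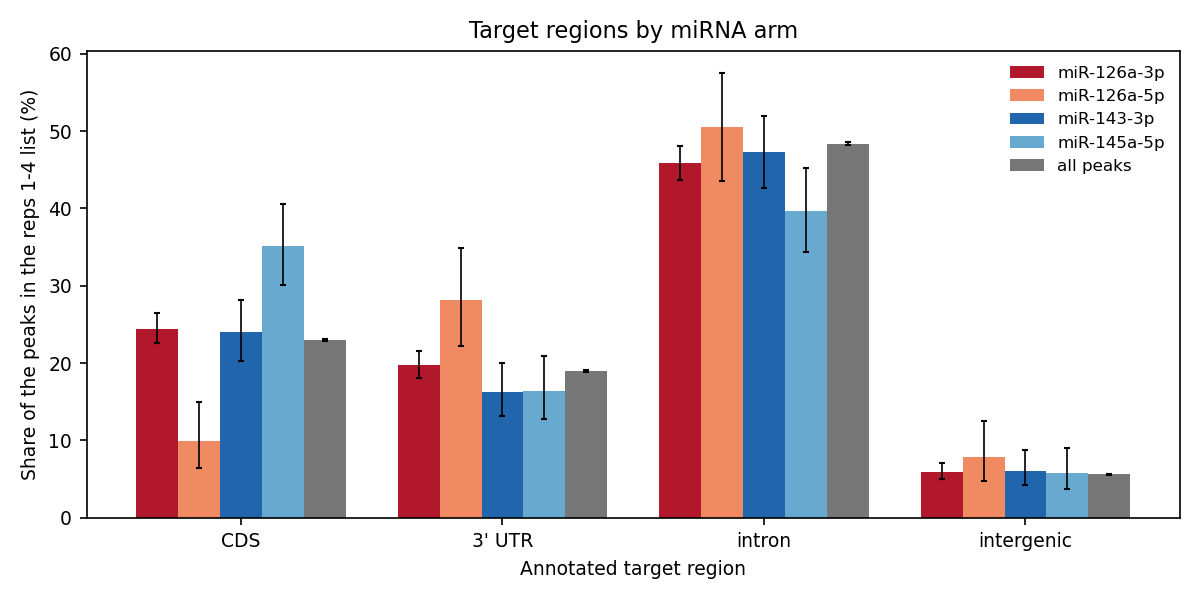
Share of peaks (%) in CDS, 3' UTR, intron and intergenic regions of reps 1-4 for each arm and, in grey, for all peaks. Bars are shares and lines are Wilson 95% intervals; miR-145a-5p stands highest in CDS at 35.2% and miR-126a-5p lowest at 9.90%.

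The main question was whether the targets were vascular or neuronal genes. The members and gene lists were chosen with earlier results of these data known, so the shares below are descriptions and not tests. On the list of 50 endothelial genes, miR-126a-3p placed 51 peaks, 2.62% of its peaks (2.00 to 3.43%), against 0.238% of all peaks (0.219 to 0.258%), an 11.0-fold difference in share. It ranked 1 of the 133 small RNAs by this share, ahead of miR-23a-3p with 1.85%, miR-21a-5p with 1.67% and miR-27a-3p with 1.63%. Its peaks lay on 21 of the 42 endothelial list genes that held any peak (50%), whereas it had a peak on 9.38% of all 11349 target genes. On 15 of those 21 genes no small RNA had more peaks than miR-126a-3p, counting ties. Such ties included Kdr and Esam, with 4 peaks each in all, Egfl7, with 5, and Ly6a, with 6, all at 1 peak. They also included Adgrf5, Cldn5 and Itm2a at 2 peaks, so miR-126a-3p did not lead alone on many of the 15. Seen from the targets, miR-126a-3p made up 8.87% of all peaks on endothelial list genes, next after miR-124-3p with 16.2%, and 0.680% of peaks on neuronal list genes.

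On the 99 neuronal list genes miR-126a-3p placed 81 peaks, 4.16% of its peaks (3.36 to 5.15%), against 4.92% of all peaks (4.83 to 5.01%), and ranked 91. Counted by peaks, the endothelial share was thus above that of all peaks beyond counting error and the neuronal share was not. Counted by genes, both were above: miR-126a-3p had a peak on 27 of the 92 neuronal list genes with any peak (29.3%), against 9.38% of all target genes, and neuronal list genes made up 2.54% of its target genes, against 0.811% of all target genes. On the excitatory neuron list, 1 of the neuronal lists, its share was below that of all peaks (8 peaks, 0.411%; 0.209 to 0.810%, against 0.829%). Neuronal list genes held a median of 41 peaks per gene, against 6 for endothelial list genes, and miR-126a-3p had more neuronal than endothelial peaks in number. Of the neuronal peaks, 62 were intronic (76.5%), among them 12 each in the introns of the synaptic adhesion genes Nlgn1 and Nrxn3. With CDS and UTR peaks alone, 5.59% of miR-126a-3p peaks were endothelial, against 0.477% of all such peaks, and 2.17% were neuronal, against 3.74%. Leaving out list genes that other brain cells are also known to express, such as Bsg, Spock2 and Ahnak, gave 1.49% for miR-126a-3p, against 0.0826% of all peaks. Without Ahnak alone, the list gene with the most miR-126a-3p peaks, the endothelial share was 2.22%, against 0.227%.

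**Figure D2:**
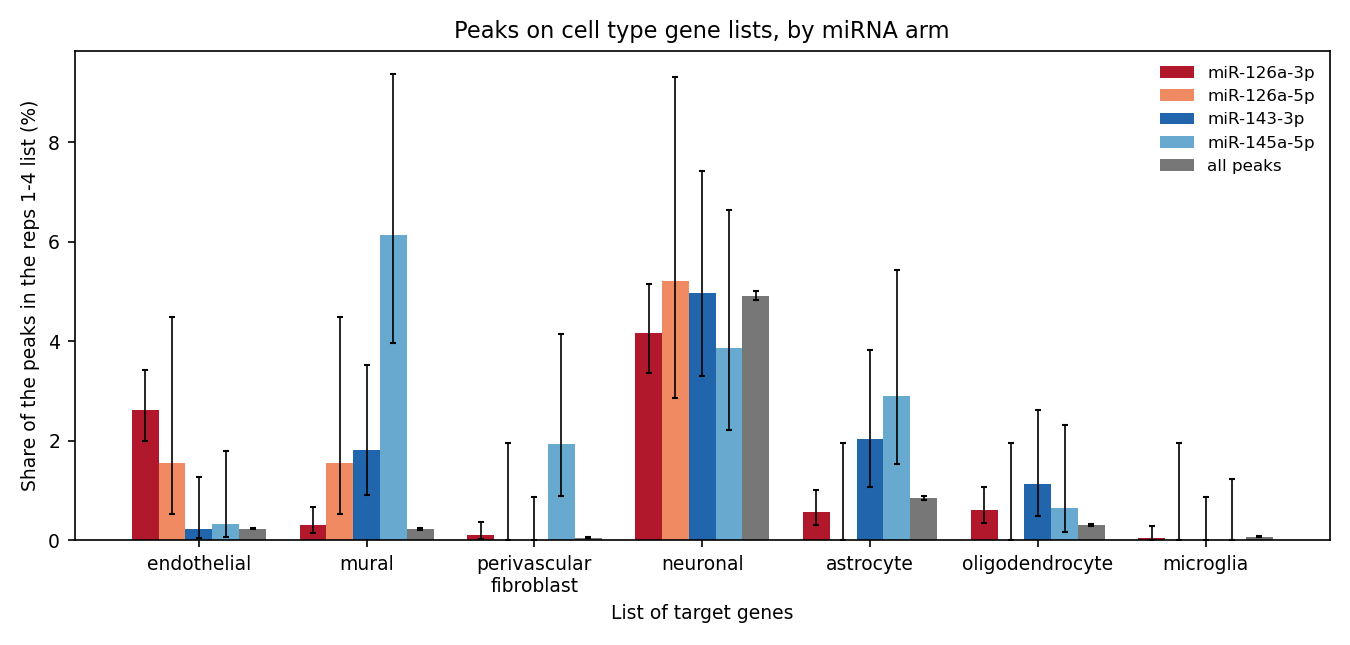
Share of peaks (%) on each list of genes in reps 1-4, for the 4 arms and for all peaks in grey; lines are Wilson 95% intervals. miR-126a-3p stands above all peaks on the endothelial list (2.62% and 0.238%) and miR-145a-5p on the mural list (6.13% and 0.236%), while on the combined neuronal lists the 4 arms lie between 3.87% and 5.21%, against 4.92% of all peaks.

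**Figure D3:**
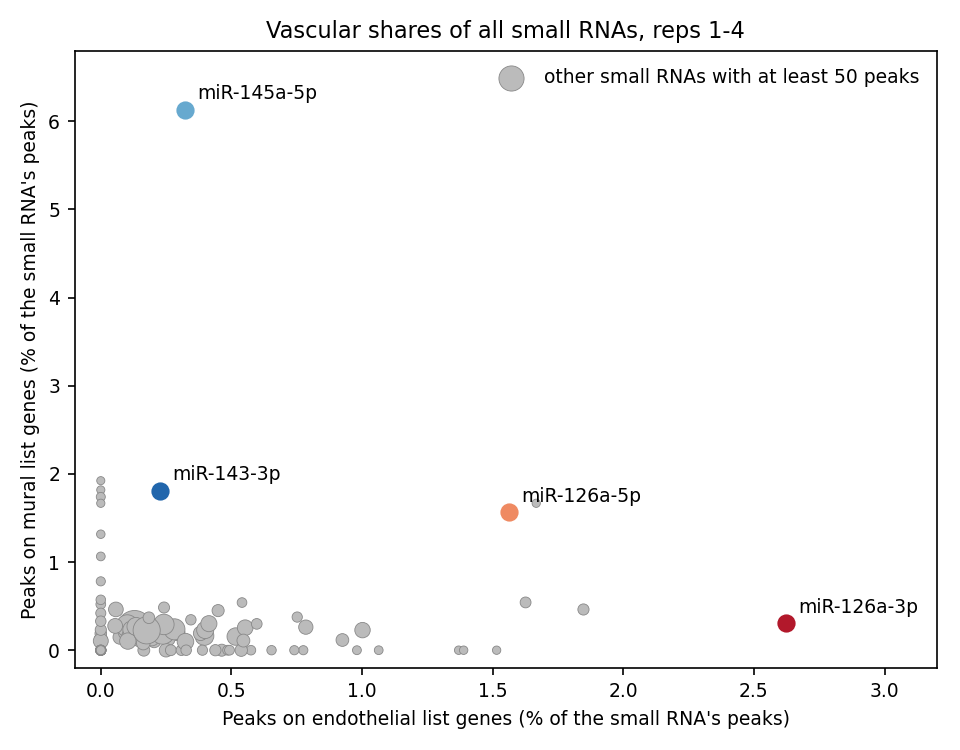
Each point is 1 of 133 small RNAs of reps 1-4, placed by its share of peaks (%) on endothelial (x) and mural (y) list genes; the grey points grow with the number of peaks and the coloured ones have a fixed size. miR-126a-3p lies farthest right at 2.62% and miR-145a-5p highest at 6.13%.

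The endothelial targets of miR-126a-3p covered receptors, junctions and transporters. The highest score lay in the 3' UTR of Spock2, a secreted proteoglycan gene that neurons also express (score 83, chr10:60133017-60133032). Bsg held 5 peaks, of which the CDS peaks at chr10:79709779-79709791 and chr10:79710357-79710372 scored 52 and 20. Slc7a5 held adjoining 3' UTR peaks of score 32 (chr8:121882862-121882876) and 23 (chr8:121882830-121882846). These 3 genes held the highest scores on the list and are known to be expressed outside vessels too.

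Genes more restricted to endothelium followed. Ptprb, the endothelial receptor phosphatase that acts on Tie2 and VE-cadherin, had a 5' UTR peak of score 31 (chr10:116301580-116301597). The VEGF receptor gene Flt1 had CDS peaks of scores 16, 5, 3, 3 and 3, the highest at chr5:147673649-147673658. Kdr, the main signalling VEGF receptor, had 1 CDS peak of score 7 (chr5:75959347-75959370). Cldn5, the main claudin of the blood-brain barrier, had CDS peaks of scores 14 and 9, and the adhesion gene Pecam1 had CDS peaks of 9 and 7. Esam, Icam2 and Egfl7, the host gene of the miRNA, each had 1 CDS peak of score 7. Eng, a co-receptor for TGF-beta ligands, had CDS peaks of 6, 4 and 3, and the receptor kinase gene Tie1 had 2 of score 4. These genes thus carried between 1 and 5 miR-126a-3p peaks each, most of those listed being in coding sequence.

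Taken over the list, 40 of the 51 endothelial peaks lay in CDS (78.4%; 65.4 to 87.5%), 7 in 3' UTRs, 2 in 5' UTRs and 2 in introns. The other small RNAs on the same genes had 50.8% in CDS (46.5 to 55.0%). Scores on the list ran from 3 to 83 with a median of 6, and 12 peaks scored 10 or more. Genes of the list with peaks of other small RNAs but none of miR-126a-3p included Abcb1a, Cd34, Cdh5 and Mfsd2a.

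The share on endothelial genes differed by score. Of the miR-126a-3p peaks of score 3, 12 of 952 were endothelial (1.26%; 0.723 to 2.19%), and of those of score 4 to 5, 10 of 585 (1.71%; 0.931 to 3.12%). Among peaks of score 6 to 9 it was 17 of 275 (6.18%; 3.90 to 9.68%), and among those of 10 or more it was 12 of 133 (9.02%; 5.24 to 15.1%). Over all peaks the same shares were 0.193%, 0.223%, 0.308% and 0.333%. The neuronal share of miR-126a-3p was 4.62%, 4.27%, 2.55% and 3.76% in the same order of scores, with overlapping intervals. The endothelial share was thus higher among peaks of higher score, and the intervals of the lowest and highest class did not overlap.

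**Figure D4:**
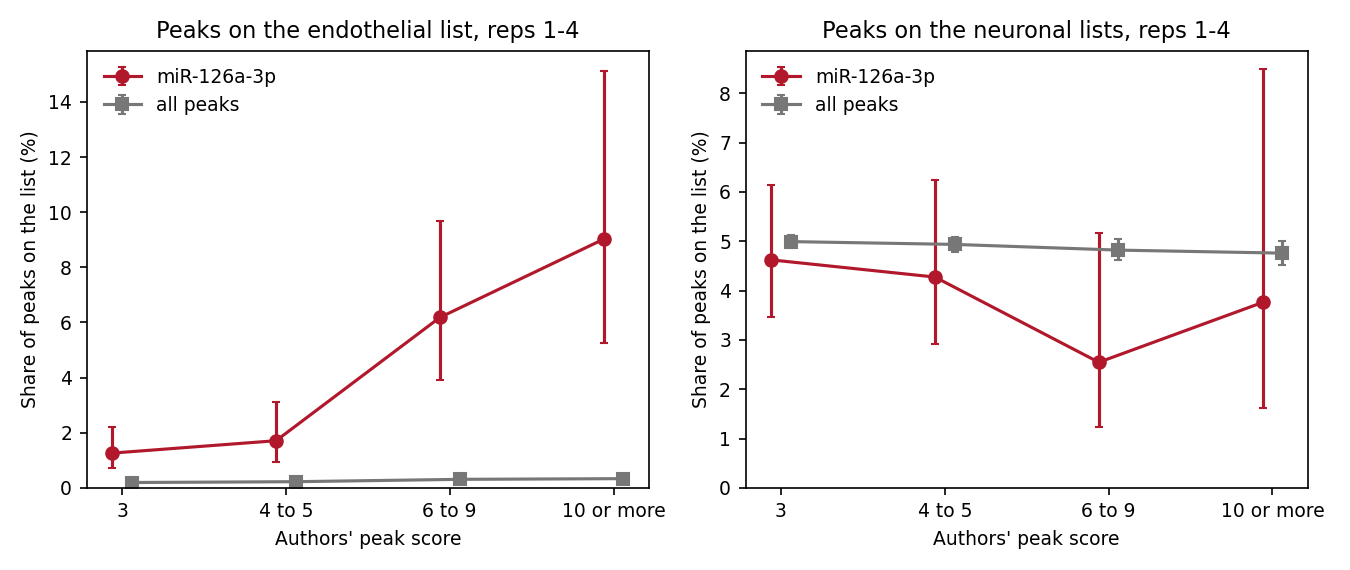
Share of peaks (%) on the endothelial list (left) and the neuronal lists (right) by the authors' peak score, for miR-126a-3p in red and all peaks in grey, with Wilson 95% intervals. The red endothelial points run from 1.26% at score 3 to 9.02% at 10 or more, while the neuronal points stay between 2.55% and 4.62%.

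On the list of 40 mural genes, miR-145a-5p placed 19 peaks, 6.13% of its peaks (3.96 to 9.37%), against 0.236% of all peaks (0.217 to 0.256%), a 26.0-fold difference in share. It ranked 1 of 133 small RNAs and hit 11 of the 25 mural list genes with any peak (44%), against 1.98% of all target genes. On 9 of the 11 no small RNA had more peaks, counting ties. Itga1, Myl9 and Tagln, with 2 peaks each in all, Cspg4, with 3, and Cald1, with 6, were such ties at 1 peak. Vtn, where miR-143-3p had as many, and Mylk were ties at 2 peaks. Only on Myh11 and Acta2 did miR-145a-5p lead alone. Its 19 peaks comprised 12 in CDS, 4 in 3' UTRs and 3 in introns, whereas 67.9% of the other small RNAs' peaks on these genes were intronic, most of them in Cacna1c, a long calcium channel gene that neurons also express. Scores were low, from 3 to 12 with a median of 4. Leaving out mural list genes also known from other brain cells, a choice made after seeing the data, gave 4.19%, against 0.0413% of all peaks.

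The mural list genes with a miR-145a-5p peak included genes of the contractile apparatus and of pericytes, which are the kinds of gene the list was made of. Myh11, the smooth muscle myosin heavy chain, had CDS peaks of scores 7, 4 and 3, the highest at chr16:14233560-14233579. The kinase gene Mylk, which activates myosin, had CDS peaks of 5 and 3, and Tagln, an actin-binding protein of smooth muscle, had a 3' UTR peak of 7 (chr9:45930139-45930151). Acta2, smooth muscle actin, had a CDS peak of 4 and an intron peak of 3, and the myosin light chain gene Myl9 had a CDS peak of 3. Rgs5, a regulator of G protein signalling that marks pericytes, had 3' UTR peaks of 12 and 3 and a CDS peak of 3, the highest at chr1:169694576-169694585. Rgs4, its relative, with 58 peaks in all and miR-124-3p leading, had a CDS peak of 7 and a 3' UTR peak of 3. The remaining peaks lay on Vtn, Cald1, Cspg4 and Itga1 with scores of 3 to 4.

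miR-145a-5p also placed 6 peaks on the perivascular list (1.94%; 0.890 to 4.16%), against 0.0516% of all peaks. These were 4 on Col4a1, 1 on Col4a2 and 1 on Nid1, all genes of the vascular basement membrane. On the neuronal lists it had 12 peaks (3.87%; 2.23 to 6.64%), against 4.92% of all peaks, of which 11 were intronic and 1 lay in the CDS of the enkephalin gene Penk. These were on 8 of the 92 neuronal list genes with any peak (8.70%), whereas it had a peak on 1.98% of all target genes, and neuronal list genes were 3.56% of its target genes, against 0.811% of all. With CDS and UTR peaks alone, 9.94% of its peaks were mural and 0.621% neuronal, against 0.186% and 3.74% of all such peaks. Over the vascular lists together miR-145a-5p had 8.39% (5.79 to 12.0%), the highest of the 133 small RNAs, against 0.525% of all peaks.

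miR-143-3p was less clearly vascular. It placed 8 peaks on mural list genes, 1.81% of its peaks (0.920 to 3.53%), against 0.236% of all peaks, and ranked 4. They lay on 5 genes: Rgs4 with a CDS peak of score 20 (chr1:169744366-169744384), the potassium channel subunit gene Abcc9 with 9, the receptor gene Pdgfrb of pericytes with 6 and 3, Vtn with 5 and 4, and Rgs5 with 3 and 3. On neuronal list genes it had 22 peaks (4.98%; 3.31 to 7.42%), against 4.92% of all peaks, and these were on 11 of the 92 genes with any peak (12.0%), against 2.58% of all target genes. With CDS and UTR peaks alone, 4.40% were mural and 4.95% neuronal. Its mural share was thus above that of all peaks beyond counting error and rested on 8 peaks. Without list genes also known from other brain cells it was 1.58%, against 0.0413% of all peaks. miR-126a-5p placed 3 peaks on endothelial list genes, in the annotated 3' UTRs of Flt1, Adgrl4 and Cyyr1 with scores of 3 to 4 (1.56%; 0.533 to 4.49%), and 10 peaks on neuronal list genes (5.21%). Of the last, 5 were on the excitatory neuron list (2.60%; 1.12 to 5.95%), above the 0.829% of all peaks beyond counting error.

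Peaks on genes of the other vessel layer were rare. miR-126a-3p had 6 mural peaks, 5 of them in introns of Cacna1c, and 0.308% of its peaks were mural (0.141 to 0.671%), against 0.236% of all peaks. miR-143-3p and miR-145a-5p each had 1 endothelial peak, on Bsg and on Ahnak. miR-126a-5p differed in that it had as many mural peaks as endothelial ones, 3 of each (1.56%; 0.533 to 4.49%), on Cacna1c, Foxf2 and Synpo2. For the other 3 arms the share on the other vessel layer was within counting error of that of all peaks.

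**Figure D5:**
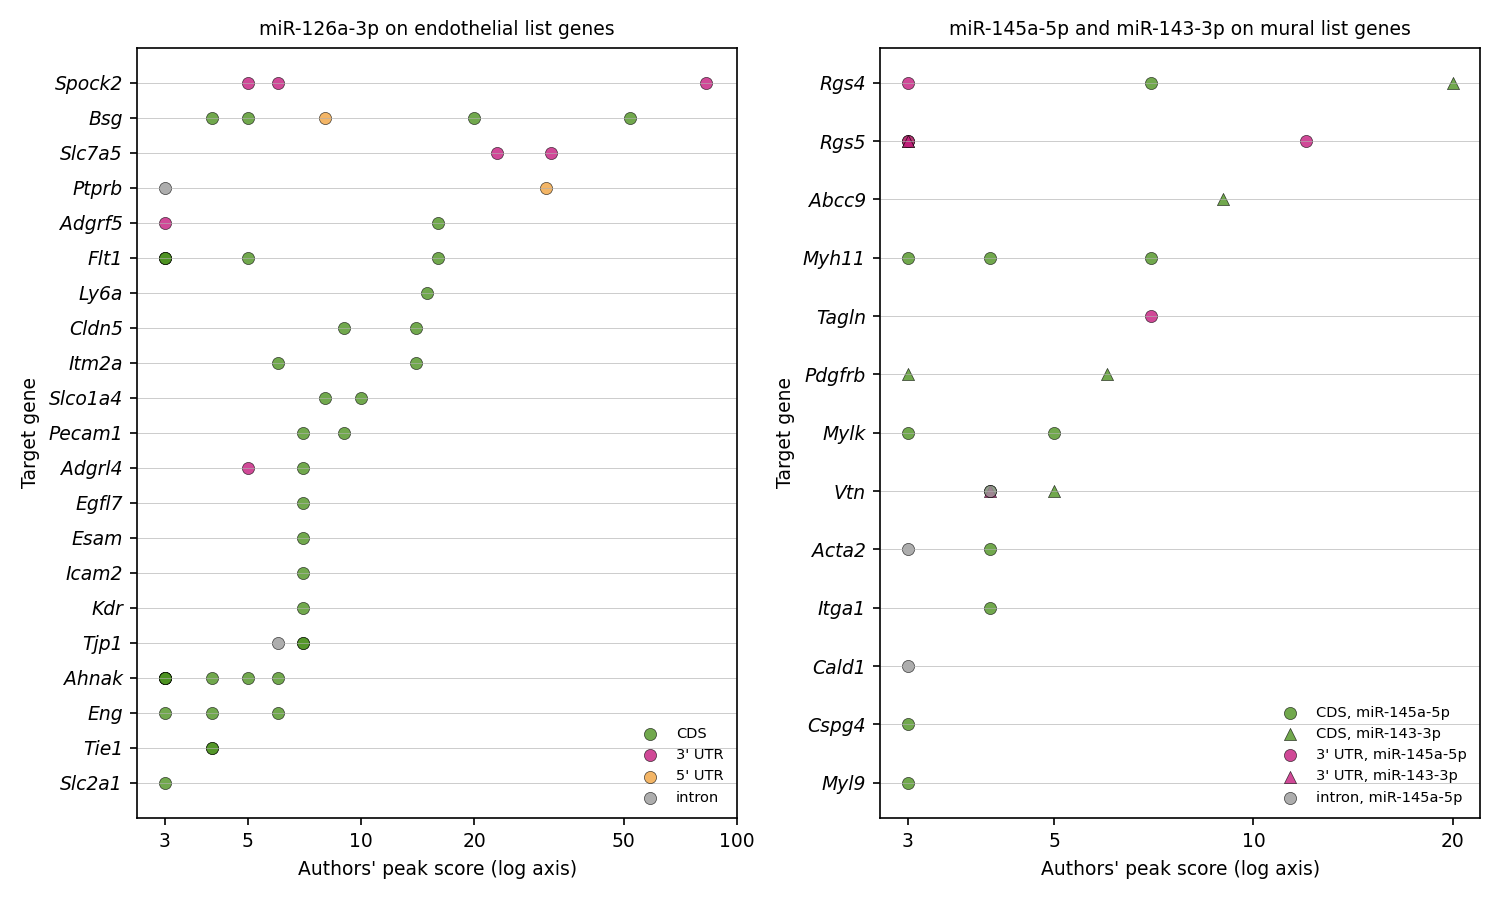
Score of each peak (log axis) on endothelial list genes for miR-126a-3p (left) and on mural list genes for miR-145a-5p (circles) and miR-143-3p (triangles) (right), coloured by region; darker points are peaks of equal score. Spock2 holds the highest endothelial score, 83, Rgs4 the highest mural one, 20, and most points lie in CDS.

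Glial genes gave smaller differences. On the astrocyte list miR-145a-5p had 9 peaks (2.90%; 1.53 to 5.42%) and miR-143-3p had 9 (2.04%; 1.07 to 3.82%), against 0.854% of all peaks, while miR-126a-3p had 11 (0.566%). They included a CDS peak of score 23 of miR-143-3p on Sparcl1, a matricellular protein gene of astrocytes. On the oligodendrocyte list miR-126a-3p had 12 peaks (0.617%), against 0.310% of all peaks, among them CDS peaks of 33, 3 and 3 on the myelin gene Mal. There miR-143-3p had 5 peaks (1.13%; 0.484 to 2.62%). On the microglia list miR-126a-3p had 1 peak and the other arms had 0.

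Single genes were tested next: for each gene with at least 10 peaks, the share of an arm was compared with its share on all other genes by a two-sided Fisher's exact test, adjusted after Benjamini-Hochberg over 4096 genes per arm. Neighbouring peaks on 1 gene, and peaks of several small RNAs at 1 place, count as independent in this test. For miR-126a-3p 3 genes passed, all higher, which is 0.0732% of genes. Ahnak, which encodes a giant scaffold protein found in endothelium and other cells, held 8 CDS peaks of miR-126a-3p among 26 peaks (30.8% against 0.797% elsewhere, odds ratio 55.3, adjusted p = 9.36e-08, Fisher's exact test), with scores of 3 to 6 between chr19:9002521-9002540 and chr19:9018110-9018127. Flt1 had 5 of 27 peaks (odds ratio 28.2, adjusted p = 0.00467, Fisher's exact test). Pltp, the phospholipid transfer protein gene, had 4 of 14 peaks (odds ratio 49.7, adjusted p = 0.00525, Fisher's exact test), all in CDS with scores of 14, 8, 4 and 3. None of the 3 passed when only peaks at or above the median score were kept, where Bsg passed instead (adjusted p = 0.0333, Fisher's exact test).

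No gene passed as lower for miR-126a-3p, with 91 higher and 1 lower at an unadjusted p under 0.05. Just short of the threshold were Slc37a3 (3 of 10 peaks) and Bsg (5 of 53), each with an adjusted p of 0.0559, and the amino acid transporter gene Slc7a1 (4 of 30, adjusted p = 0.0649, Fisher's exact test). Of the 14 endothelial list genes tested, 12 held a miR-126a-3p peak and 2 passed, with a median share of 8.72%. The median over all tested genes was 0 and the mean 0.792%. Of the 76 neuronal list genes tested, 27 held a miR-126a-3p peak and 0 passed.

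For miR-145a-5p 3 genes passed as higher, again 0.0732%, and 0 as lower. Col4a1, a collagen chain of the basement membrane, held 4 of 26 peaks (odds ratio 144, adjusted p = 0.000157, Fisher's exact test), with CDS scores of 7, 5 and 3 and an intron score of 5, the highest at chr8:11246875-11246895. Rgs5 held 3 of 30 (odds ratio 87.7, adjusted p = 0.0167, Fisher's exact test) and Myh9, the non-muscle myosin heavy chain, 3 of 35, all in CDS (odds ratio 74.0, adjusted p = 0.0179, Fisher's exact test). Rgs5 did not pass with peaks at or above the median score (adjusted p = 1, Fisher's exact test). With genes of at least 5 peaks, Myh11 (3 of 5 peaks), Mylk (2 of 6) and Acta2 (2 of 8) passed as well.

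For miR-126a-5p the share passing was 0% and for miR-143-3p also 0%, with 63 and 67 genes higher at an unadjusted p under 0.05. The genes nearest to the threshold for miR-143-3p were Otud4 (3 of 37 peaks, adjusted p = 0.181), Lrrtm4 (8 of 847, adjusted p = 0.257) and Cd2ap (2 of 10, adjusted p = 0.257; Fisher's exact test with Benjamini-Hochberg adjustment). Vtn, a vitronectin gene expressed by pericytes, had 2 of 15 (adjusted p = 0.279, Fisher's exact test).

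By number of peaks alone the leading targets were long neuronal genes. The 10 genes with the most miR-126a-3p peaks included Kcnip4 with 35, Pcdh9 with 32 and Celf2 and Nrg3 with 23 each, and 193 of the 197 peaks on these 10 genes were intronic. These genes hold many peaks of all small RNAs: miR-126a-3p made up 1.15% of the 3045 peaks on Kcnip4, and 1.00 to 1.57% over the 10 genes. None of them passed the gene test. Kcnip4, Pcdh9 and Celf2 were also among the leading targets of miR-143-3p and miR-145a-5p.

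By score the leading places were crowded. The highest miR-126a-3p scores, 376 and 349, lay in an intergenic stretch at chr3:5860644-5860648 and chr3:5860666-5860695, and the next, 300, at chr17:39846902-39846903 beside Gm42418. Peaks of 213 small RNAs fell in the first of these places and of 287 in the second, and 13 and 25 member peaks lay there. Together they held 14.2% of the summed member score, against 6.15% over all peaks. Outside them, high miR-126a-3p scores beyond those above lay in the CDS of the mitochondrial gene mt-Nd5 (78), in the long noncoding RNA Malat1 (71), in the CDS of Actb (45), the 3' UTR of Dnmt3a (39), the 3' UTR of the adhesion gene Nptn (31), and the CDS of Acvrl1 (29), an endothelial TGF-beta family receptor, and of Ece1 (28), which activates endothelin. For miR-143-3p they were mt-Nd5 (199), Malat1 (66), the 5' UTR of the lipocalin gene Apod (34) and the CDS of Sept8 (33). For miR-145a-5p they were 2 peaks on the spectrin gene Sptbn1 (33 and 32) and the 3' UTR of Phactr1 (17).

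Targets known from general knowledge of these miRNAs were looked up by gene name. Of 11 known miR-126a-3p targets with any peak, 9 held a peak of it, against 9.38% of all target genes, and 10 of the 11 peaks lay in 3' UTRs. Vcam1, the leukocyte adhesion receptor, had 3' UTR peaks of 42 and 10 (chr3:116110252-116110259 and chr3:116110302-116110305). Spred1, an inhibitor of Ras and ERK signalling, had 1 of score 10 (chr2:117178456-117178469), and Pik3r2, a regulatory subunit of PI3 kinase, had 1 of score 3 (chr8:70768203-70768230). Crk (6), Adam9 (5), Plk2 (3) and the chemokine gene Cxcl12 (3) had 1 each, Slc7a5 and Egfl7 were described above, and Irs1 and Rgs3 had none. These sites lay in 3' UTRs where the endothelial list peaks lay mostly in CDS.

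For the other arms the counts of known targets were too small to read. miR-143-3p had a peak on 1 of 13 known targets with any peak, the 3' UTR of the kinase gene Mapk7 (score 7), against 2.58% of all target genes. miR-145a-5p had a peak on 0 of 17, against 1.98% of all target genes. Among the 17 were Klf4 and Fscn1, and other small RNAs had 578 peaks on them. At such low shares, a count of 0 or 1 on lists this short does not tell whether known targets were missed. miR-126a-5p had peaks on 2 of 4, Alcam and Cxcl12, against 1.26% of all target genes. On the list of VEGF, ERK and PI3 kinase signalling genes, miR-126a-3p had 22 peaks (1.13%; 0.748 to 1.71%) on 12 of 43 genes, against 0.558% of all peaks. On the list of the actin and smooth muscle programme miR-145a-5p had 4 (1.29%; 0.503 to 3.27%), within counting error of the 0.569% of all peaks.

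Some targets were shared by the 3 miRNAs. Of 978 genes that a member hit in CDS or UTR, 79 were hit by at least 2 of the 3 miRNAs and 7 by all 3. Both miR-143 and miR-145a hit 12 of them. Of all 11349 target genes, miR-126a-3p hit 6.29% in CDS or UTR, miR-143-3p 1.43% and miR-145a-5p 1.23%. The same overlap was not counted for other small RNAs. The genes hit by all 3 were mt-Nd5, Sptbn1, Atp1b1, Slc1a2, Sparcl1, Rgs4 and mt-Cytb. Some of these hold many peaks of all small RNAs, with 445 on Sptbn1 and 234 on mt-Nd5. Sptbn1 held CDS peaks of miR-145a-5p and miR-143-3p that both start at chr11:30143171, with scores of 33 and 19. Peaks of different member miRNAs overlapped in 48 pairs, of which 26 lay in the crowded places on chromosomes 3 and 17.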

How the data were processed

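Per the labels, small RNAs were ligated to their targets in precipitated Ago2 complexes of mouse forebrain and sequenced as chimeric reads. The authors pooled a group's libraries before peak calling, per the calling summaries, which set minimums of 3 reads and 2 libraries and name mm10 and miRBase. The submitters' processing notes name mm10 too. The aligner and caller were not given in the sources used here. Each peak came with a whole-number score by the authors, unscaled for library size, and with 1 annotated feature and gene symbol. Reps 5-7 and excitatory neurons share 3 library numbers in the summaries, whose meaning is not stated. Depth per library is not given, so the precision follows from peak numbers.

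From these lists, peaks on mitochondrial rRNA and Gm42418 were left out (4798 peaks). Shares were compared with Fisher's exact test, two-sided, and Benjamini-Hochberg adjustment over all small RNAs (at least 10 peaks in the compared lists, or 50 for regions) or all genes (at least 10 peaks), with a threshold of 0.05. The tests were tried on simulated data, where abundant small RNAs or genes that differ shift the pooled share of the rest, so low-side region calls of the others can follow. Peaks of 2 lists matched when 1 small RNA overlapped by at least 1 base on 1 strand. Gene list shares were described without a test. Genes named were, per arm, the 10 with the most peaks, the 10 highest-scoring peaks, up to 10 genes past the gene test with the largest odds ratios, all member peaks of the smaller lists, endothelial, mural and known-target genes with a member peak, and up to 10 genes hit by at least 2 of the 3 miRNAs; the leading ones have values. Genes short of the threshold, list genes without a member peak and the genes hit by all 3 miRNAs were added after their values were seen, as were exonic peaks past the 10 highest. The members and gene lists were chosen with earlier results of these data known. Alternatives changed the score, region, list size, rRNA, IgG, crowding, weighting and overlap rules. Python 3.11.15, pandas 2.3.3, numpy 2.4.6, scipy 1.17.1, bedtools 2.31.1 and matplotlib 3.10.9 were used. Mature miRNA sequence came from RefSeq (GRCm38.p6).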

Additional observations from a re-analysis of the deposited data

Results flagged for a closer look

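Member miRNAs also had peaks on the rRNA features that were left out of every comparison, and the IgG list had 0 member peaks there. In reps 5-7, 18 of the 36 peaks of these miRNAs lay on such features (50%), with 6 each on Gm42418 (highest score 55), mt-Rnr1 (23) and mt-Rnr2 (5). Over all small RNAs, 591 of the 3611 deposited reps 5-7 peaks lay there. For the members in reps 1-4 it was 103 of 2997 (3.44%), with 36 on Gm42418 (highest score 328), 32 on mt-Rnr1 (549) and 35 on mt-Rnr2 (74). All small RNAs together had 4136 of the 246180 deposited reps 1-4 peaks there. The IgG list was small, with 10 deposited peaks of which 9 lay on the left-out features.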

How the results depend on the processing

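Of the values answering a comparison, 163 kept their direction and call, or stayed inside the main value's interval or count range, under an alternative. Of the rest, 27 were counted as moved, 10 as stronger and 5 as turned in direction. Between lists, merging all members made the difference -1.20 points for excitatory neurons minus reps 1-4 (adjusted p = 0.0108) and -0.600 for reps 5-7 minus reps 1-4 (0.0380), both Fisher's exact test. For reps 5-7 minus reps 1-4, miR-126a-3p gave -0.549 with CDS and UTR peaks alone and 0.132 with the larger list reduced, and miR-126a-5p gave 0.0800 with rRNA kept in. Reducing the larger list gave no other value, since too few member peaks were left.

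For regions, the CDS difference of miR-126a-3p was 2.90 points without crowded places. With scores summed, CDS differences were -4.70 (miR-126a-3p), -17.6 (miR-126a-5p) and 0.773 (miR-145a-5p), 3' UTR differences -4.26 (miR-126a-3p), -9.45 (miR-143-3p) and -10.2 (miR-145a-5p), and intron differences 0.664 (miR-126a-3p), 14.4 (miR-126a-5p) and -2.93 (miR-145a-5p). Intron differences turned to -5.34 for miR-126a-5p at or above the median score and to 0.781 for miR-143-3p without crowded places.

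Genes passing for miR-126a-3p numbered 5 with at least 5 peaks per gene (Eng and Txndc5 added), 5 with CDS and UTR peaks alone (Bsg and Slc37a3 added) and 1 at or above the median score (Bsg). There, adjusted p was 0.146 for Ahnak, 0.839 for Flt1, 0.0533 for Pltp and, for miR-145a-5p, 1 for Rgs5 (Fisher's exact test). miR-143-3p had 1 gene at or above the median score (Otud4), and miR-145a-5p had 6 with at least 5 peaks per gene.

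The endothelial share of miR-126a-3p was 5.59% with CDS and UTR peaks alone, 3.93% at or above the median score, 1.97% with genes counted once (0.370% of all genes), 4.77% with scores summed and 1.49% without genes known from other brain cells, the last chosen after seeing the data. Its neuronal share was 2.17% with CDS and UTR peaks alone, 2.54% with genes counted once (0.811% of all genes) and 3.19% with scores summed. With CDS and UTR peaks alone the mural share was 4.40% for miR-143-3p and 9.94% for miR-145a-5p, whose neuronal share was 0.621%, or 0.735% at or above the median score. Reps 5-7 peaks found again were 22.2% with a reciprocal overlap of 50% and 88.9% for any small RNA. Dropping the leading gene of a list, dropping the crowded places on chromosomes 3 and 17 and merging neighbouring peaks were also chosen after seeing the data. None of these 3 moved a share out of its interval or changed a call.

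No paired analysis was possible because the deposited lists pool the libraries of a group and hold no values per replicate. For the same reason no replicate was left out in turn. Seed matches in the peaks were not run, since no genome was given. With 704 and 3020 peaks, the smaller lists limit what can be detected for these miRNAs, and the causes of the shifts were not tested.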
